A study of Homo sapiens with 54 samples.

Results

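Hepatocyte-type and endodermal genes were examined in A549 cells, a human lung adenocarcinoma line. The members are 9 of the 58870 genes in the deposited count table, namely FGA, FGB, FGG, SERPINA1, A1CF, HNF4A, HNF4G, FOXA1 and FOXA2, and were found by their symbols. They were chosen by their levels in the vehicle libraries of both vectors, with earlier results of these data known. The difference between the vectors under vehicle is therefore given here as a description without a test. The study asked how compounds found in a screen against the deISGylase USP18 act on lung cancer cells, and whether added USP18 alters the response. A population of cells carried a vector without an insert (empty vector) and the other a vector that expresses USP18, and no source used here names more than 1 population of each. Exposure lasted 48 h, to DMSO as vehicle or to a compound known here only by its code. CP2 was given at 2 or 5 µM, and CP14 and CP18 at 1, 2.5 or 5 µM. This gave 18 groups of 3 replicates, 54 libraries in all. The study's methods speak of independent biological replicates for its experiments in general, and no source used here says so of these libraries, so p-values measure the spread between these libraries, which may be technical. All groups shared the A549 background and a vector, and no library of cells without a vector was analysed here.

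The liver makes most plasma proteins, and a small circuit of transcription factors keeps hepatocyte genes on. HNF4A is a nuclear receptor of liver, gut and kidney epithelium, and HNF4G is its paralogue. FOXA1 and FOXA2 are pioneer factors that open chromatin in endoderm and its derivatives, lung and liver included. Among the genes that such factors act on in hepatocytes are FGA, FGB and FGG, which encode the α, β and γ chains of fibrinogen, the clotting protein whose synthesis rises in the acute phase response to IL-6. SERPINA1 encodes α1-antitrypsin, the main plasma inhibitor of neutrophil elastase. A1CF encodes an RNA-binding cofactor of apolipoprotein B mRNA editing. A549 cells are known to make fibrinogen.

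The 3 fibrinogen genes lie side by side on chromosome 4 (GRCh38, GENCODE v44), FGB at chr4:154563011-154572807 on the plus strand, FGA at chr4:154583126-154590742 and FGG at chr4:154604134-154612967 on the minus strand. Their promoters are shown because these 3 genes had the highest levels per length of the 9 and fell the most with 5 µM CP14. The 250 bases before a RefSeq start of FGA (chr4:154590743-154590992, minus strand), of FGB (chr4:154562761-154563010, plus strand) and of FGG (chr4:154612657-154612906, minus strand) read as follows (RefSeq, GRCh38.p14), with exact matches to the motifs searched in capitals.
FGA: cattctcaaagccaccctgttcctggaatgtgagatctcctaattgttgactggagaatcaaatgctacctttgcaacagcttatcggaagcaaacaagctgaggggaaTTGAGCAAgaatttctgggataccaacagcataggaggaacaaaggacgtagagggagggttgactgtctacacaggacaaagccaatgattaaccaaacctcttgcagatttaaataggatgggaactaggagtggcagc
FGB: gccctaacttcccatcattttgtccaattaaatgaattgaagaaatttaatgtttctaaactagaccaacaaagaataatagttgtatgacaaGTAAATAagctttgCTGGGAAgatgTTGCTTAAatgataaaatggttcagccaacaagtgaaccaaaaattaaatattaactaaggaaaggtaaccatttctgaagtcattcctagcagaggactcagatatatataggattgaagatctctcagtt
FGG: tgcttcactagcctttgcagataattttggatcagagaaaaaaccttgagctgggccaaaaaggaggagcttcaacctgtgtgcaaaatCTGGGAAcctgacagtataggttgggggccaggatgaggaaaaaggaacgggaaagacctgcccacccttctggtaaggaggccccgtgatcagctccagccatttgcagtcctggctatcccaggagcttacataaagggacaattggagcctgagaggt
In FGA, the C/EBP motif TTGCNNAA was matched on the opposite strand at −141, counting the first base of the match from the start and naming strands relative to the gene. In FGB, the FOXA motif TNTTTAC was matched on the opposite strand at −157, the IL-6 response motif CTGGGAA at −143 and the C/EBP motif at −132. RefSeq gives a further start of FGB upstream, from which the same matches lie at −126, −112 and −101. The 3 matches do not overlap. The FGG window held CTGGGAA at −161 on the gene's own strand, and the A1CF window (chromosome 10) held the FOXA motif at −243 and −229 and the TATA motif TATAAA on both strands at −207 and −205, where the matches overlap. The same search covered both strands of all 35116 RefSeq promoters, in windows of 300 bases from 250 before to 50 after the start. The HNF4 motif CAAAGTCCA was found in 0.384% of them, C/EBP in 10.5%, FOXA in 10.8%, CTGGGAA in 10.8% and TATAAA in 11.5%. CAAAGTCCA was in no member's window. A match is a description of letters, not a binding site. HNF4G and FOXA2 are named without a promoter.

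Library totals ran from 16673228 to 25609062 counts (median 19701304). USP18 was at 8.77 to 12.3 CPM (counts scaled to library size after TMM normalization) in the 27 empty-vector libraries and at 947 to 2115 CPM in the 27 USP18 libraries, so every library matched its vector label. The labelled cell type was checked against its markers. The keratins KRT8 (at least 25546 counts in each library), KRT18 (at least 33499) and KRT7 (at least 25673) were abundant, whereas EPCAM had 26 to 293 counts, CLDN4 19 to 59 and CLDN7 11 to 56. Of 25 lung epithelium genes, 9 had at most 3 counts in every library, among them the surfactant genes SFTPA1 and SFTPB and the secretoglobin SCGB3A2 at 0 counts. NKX2-1, the lung lineage factor, had 0 to 15 counts. Other genes of that list were abundant in every library, such as CAV1 (2402 to 8055 counts), MUC5B (1044 to 8829), LPCAT1 (1020 to 4058) and ABCA3 (644 to 1955). Several defining hepatocyte genes were also at or near 0, with at most 6 counts of ALB (albumin), 2 of AFP, 1 of APOA2 and APOC3, 5 of TTR and 10 of APOA1 in any library, whereas F2 (prothrombin) had 7 to 99 and AHSG 1 to 28. Other hepatocyte genes were present in every library, such as TM4SF4 (196 to 4441 counts), F5 (141 to 1224), VTN (50 to 1033), F12 (143 to 455) and APOH (29 to 407). Among markers of blood, stromal and endothelial cells, CD3E was at 0 counts, DCN at 3 at most and PTPRC at 7 at most, whereas CD68 had 563 to 1998 counts and COL1A1 71 to 346. A list of 58 hepatocyte genes holds mostly plasma protein genes, with CPS1, a urea cycle enzyme, as its most abundant member (means of 709 and 440 CPM with empty vector and USP18). Its summed level was 558 to 1843 CPM in empty-vector libraries and 291 to 1126 CPM in USP18 libraries, of the 8 general epithelium genes 7462 to 13360 and 6361 to 9840 CPM, of the 25 lung genes 562 to 965 and 410 to 727 CPM, and of the 16 genes of other cell types 48.4 to 80.4 and 39.4 to 104 CPM. The part of these sums in the members' values was not tested.

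Under vehicle, the transcription factor genes differed between the vectors in opposite directions. HNF4A (chr20:44355699-44432845) was at 117, 133 and 113 CPM in the empty-vector libraries and at 47.1, 43.6 and 43.6 CPM in the USP18 libraries. HNF4G (chr8:75407914-75566834) was at 3.96, 4.10 and 4.01 CPM with empty vector and at 7.61, 8.83 and 9.37 CPM with USP18. The 2 paralogues thus lay on opposite sides without overlap, and HNF4G made up 3.23% ± 0.22 (SD, n = 3) of the counts of both with empty vector and 16.2% ± 1.98 (SD, n = 3) with USP18. FOXA1 (chr14:37589552-37596059) was at 34.6, 38.4 and 37.7 CPM with empty vector and at 74.9, 76.4 and 82.2 CPM with USP18. FOXA2 (chr20:22580998-22585455) was at 41.2, 40.8 and 41.8 CPM and at 52.8, 51.0 and 51.3 CPM. Both pioneer factor genes were higher in every USP18 library than in any empty-vector library. On the log2 scale the USP18 minus empty-vector differences were −1.43 for HNF4A, 1.10 for HNF4G, 1.08 for FOXA1 and 0.32 for FOXA2.

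The genes for secreted proteins and A1CF did not move as a block under vehicle. FGA was at 263, 293 and 256 CPM with empty vector and at 370, 364 and 382 CPM with USP18. FGB was at 355, 394 and 345 CPM and at 402, 395 and 414 CPM. FGG was at 138, 151 and 128 CPM and at 219, 211 and 219 CPM. All 3 chains were higher in every USP18 library than in any empty-vector library, FGB by the narrowest gap (395.1 against 394.4 CPM), and their log2 differences were 0.46 for FGA, 0.15 for FGB and 0.64 for FGG. SERPINA1 (chr14:94376747-94390693) was low, with 61, 49 and 57 counts (2.87, 2.75 and 2.26 CPM) with empty vector and 11, 16 and 22 counts (0.547, 0.781 and 1.05 CPM) with USP18. A1CF (chr10:50799409-50885675) was at 38.3, 35.3 and 33.6 CPM with empty vector and at 11.1, 10.7 and 11.9 CPM with USP18. These 2 genes were lower in each USP18 library, by 1.71 and 1.67 on the log2 scale. In all, 6 members were higher and 3 lower with USP18 without overlap of the groups, where 59.2% of all genes tested did not overlap. In bulk RNA a smaller number of cells expressing a gene and less RNA per cell cannot be told apart.

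**Figure D1:**
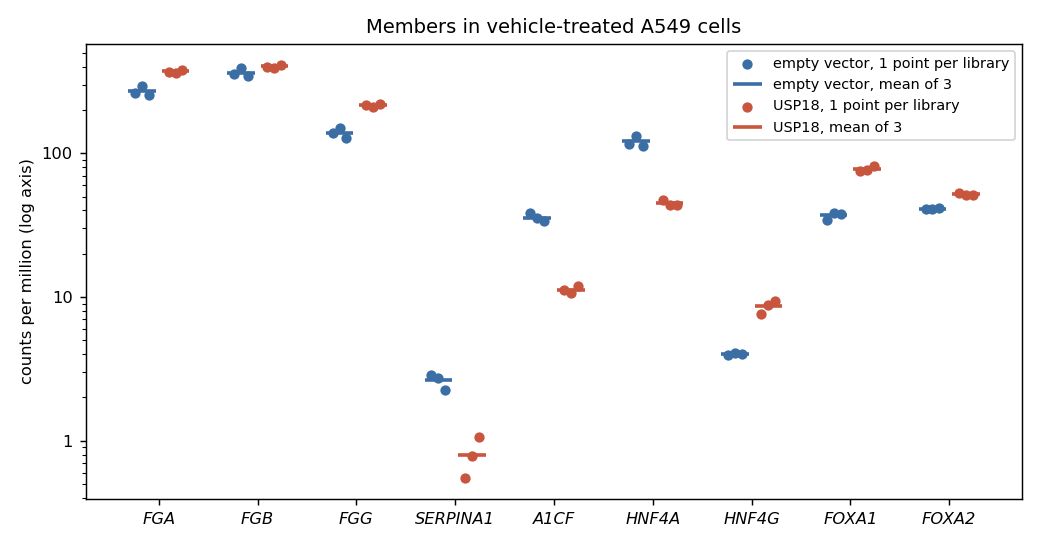
CPM (log axis) of the 9 members in the 6 vehicle libraries, with 1 point per library and a bar for the mean of 3. HNF4A, A1CF and SERPINA1 sit lower with USP18, and HNF4G and FOXA1 sit higher, at 8.61 against 4.02 CPM and 77.8 against 36.9 CPM.

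Compared per kilobase of exon, the fibrinogen genes led. With empty vector, FGB was at 83.4 ± 6.02 CPM per kb (SD, n = 3), FGA at 69.1 ± 5.04 and FGG at 38.5 ± 3.22, followed by FOXA2 at 15.2, HNF4A at 11.9, FOXA1 at 8.36, A1CF at 3.72, HNF4G at 0.838 and SERPINA1 at 0.536. With USP18, FGA (94.96 ± 2.41 CPM per kb, SD, n = 3) and FGB (92.3 ± 2.23) were level within their spread, and SERPINA1 was again last at 0.162 CPM per kb. The 3 fibrinogen genes together made up 0.0762% ± 0.0058 of all counts with empty vector and 0.0997% ± 0.0022 with USP18 (SD, n = 3).

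The question of whether the vector difference persisted outside the vehicle libraries was addressed with the 48 treated libraries. These are not part of the vehicle difference but come from the same 2 engineered populations. The members were chosen with earlier results of these data known, so these tests are not independent of that choice. The mean USP18 minus empty-vector difference over the 8 treated conditions was −1.61 for A1CF (standard error 0.038, adjusted p = 3.7e-37), −1.74 for SERPINA1 (0.12, adjusted p = 1.9e-18), −1.01 for HNF4A (0.020, adjusted p = 8.7e-41) and 1.06 for HNF4G (0.051, adjusted p = 2.3e-24). These 4 genes of 9, 1 higher and 3 lower, were called differentially expressed (adjusted p under 0.05 and absolute log2 over 1, edgeR's quasi-likelihood test with Benjamini-Hochberg adjustment), where 10.1% of the 16836 genes tested were called. The other transcription factors passed the adjusted p below that size, FOXA1 at 0.80 (adjusted p = 1.5e-35) and FOXA2 at 0.30 (adjusted p = 6.6e-20). So did FGG at 0.61 (adjusted p = 7.5e-21) and FGA at 0.27 (adjusted p = 2.9e-11), as did 77.7% of all genes. FGB differed by −0.06, with a 95% interval from −0.14 to 0.01 (adjusted p = 0.086).

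Within single conditions, 28 of the 72 differences between vectors (9 genes in 8 conditions) were called, beside 10.2% over all genes, and 66 of 72 passed the adjusted p at any size, beside 50.8%. A1CF was lower with USP18 in each of the 8 conditions, by 1.34 (5 µM CP14) to 1.89 (1 µM CP14) on the log2 scale, and SERPINA1 by 1.36 to 2.11, all of them called. HNF4G was higher in all 8 by 0.60 (1 µM CP14) to 1.33 (2.5 µM CP14), and was called in 5. HNF4A was lower in 7 conditions, by 1.05 to 1.31. The exception was 5 µM CP14, where HNF4A was at 34.2, 31.2 and 32.9 CPM with empty vector and at 36.7, 34.3 and 31.2 CPM with USP18. The difference there was 0.06, with a 95% interval from −0.07 to 0.18 (adjusted p = 0.47), and the groups overlapped. FGA and FGB were lower with USP18 at 5 µM CP14, FGB by 0.97 (adjusted p = 6.5e-08) and FGA by 0.53 (adjusted p = 8.9e-05). FGB was also lower at 2.5 µM CP14, by 0.29 (adjusted p = 0.0075, not passed in 1 of 6 fits that left out a library), whereas the difference for FGA was above 0 in the other 7 conditions. FGB was higher with USP18 at 2 µM CP2, by 0.41 (adjusted p = 1.3e-04). It was also higher at 2.5 µM CP18, by 0.23 (adjusted p = 0.032, not passed in 5 of 6 such fits). FGG was higher with USP18 in all 8, and its 0.54 at 5 µM CP14 (adjusted p = 6.2e-04) lay within the 0.46 to 0.93 of the others.

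**Figure D2:**
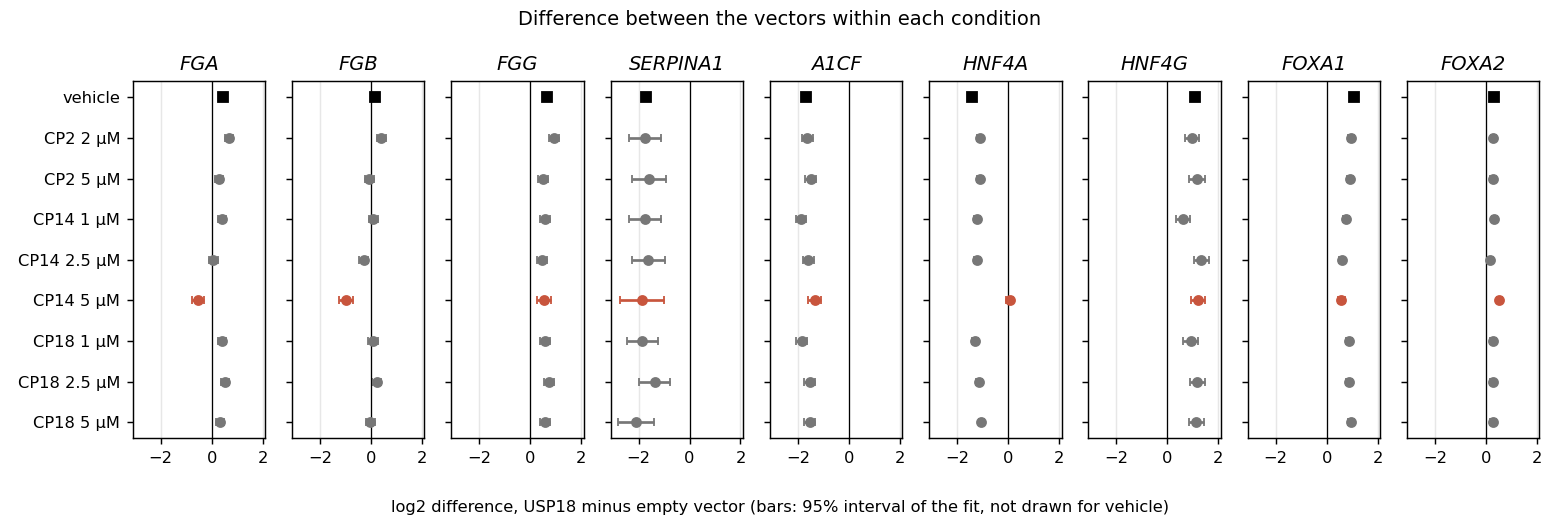
USP18 minus empty-vector difference (log2) of each member within vehicle (squares, no interval) and each of the 8 treated conditions (circles with the 95% interval of the fit, 5 µM CP14 in red). A1CF lies between −1.89 and −1.34 and SERPINA1 between −2.11 and −1.36 in the treated conditions, and HNF4A is at 0.06 and FGB at −0.97 with 5 µM CP14.

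Each compound was next compared with vehicle within each population. The vehicle libraries are shared by all 8 comparisons of a population and are those in view when the members were chosen. In empty-vector cells 7 of the 72 values were called, all of them lower and all with 5 µM CP14, beside 1.92% of values over all genes. In USP18 cells 6 of 72 were called, again all lower with 5 µM CP14, beside 2.77%. At any size of change, 31 of 72 passed the adjusted p in empty-vector cells, beside 12.9%, and 35 of 72 in USP18 cells, beside 20.2%. In the comparison of 5 µM CP14 with vehicle, 13.9% of genes were called in empty-vector cells (6.07% higher and 7.81% lower) and 17.7% in USP18 cells (8.74% higher and 9.01% lower). Of the 8 general epithelium genes, 4 were called lower and 0 higher there with empty vector (1 higher at an adjusted p under 0.05 of any size, by edgeR's quasi-likelihood test), and 3 lower and 1 higher with USP18. KRT8 was lower at −1.49 in either population (adjusted p = 3.3e-36 and 2.3e-36), whereas KRT7 was higher, at 0.94 (adjusted p = 4.4e-23) and 1.16 (adjusted p = 8.0e-27). The part of these genes in the members' values was not tested.

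The fibrinogen genes fell the most. With 5 µM CP14, FGA was at 40.6, 32.0 and 41.7 CPM in empty-vector cells and at 29.4, 22.4 and 27.3 CPM in USP18 cells. FGB was at 35.9, 27.7 and 38.7 CPM and at 19.1, 13.7 and 19.4 CPM. FGG was at 23.1, 18.6 and 22.8 CPM and at 34.2, 27.6 and 31.7 CPM. Every one of these values lay below every vehicle value of the same gene and population. FGA changed by −2.83 on the log2 scale with empty vector (7.11-fold lower, standard error 0.095, adjusted p = 5.8e-30) and by −3.82 with USP18 (14.1-fold lower, standard error 0.099, adjusted p = 1.4e-34). FGB changed by −3.42 (10.7-fold lower, adjusted p = 1.0e-30) and by −4.54 (23.2-fold lower, adjusted p = 2.5e-34). FGG changed by −2.69 (6.45-fold lower, adjusted p = 1.5e-25) and by −2.79 (6.94-fold lower, adjusted p = 1.0e-27). The 3 genes then made up 0.0095% ± 0.0014 of counts with empty vector and 0.0078% ± 0.0010 with USP18 (SD, n = 3).

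The balance of the chains shifted as well. Counts of FGB per count of FGG were 2.63 ± 0.06 under vehicle with empty vector and 1.87 ± 0.03 with USP18 (SD, n = 3). They ran from 1.80 to 3.21 in group means with the other treatments, and were 1.58 ± 0.11 and 0.556 ± 0.058 with 5 µM CP14 (SD, n = 3). FGA per FGG was 1.95 ± 0.05 and 1.72 ± 0.03 with vehicle, and 1.77 ± 0.05 and 0.845 ± 0.029 with 5 µM CP14. The lowest ratios of the 18 groups were thus those of USP18 cells with 5 µM CP14. These are ratios of counts within a library, which scaling between libraries does not touch, and they do not compare numbers of transcripts, because gene lengths differ.

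HNF4A changed by −1.88 with empty vector and 5 µM CP14 (3.68-fold lower, adjusted p = 7.6e-32) and by −0.39 with USP18 (1.31-fold lower, adjusted p = 1.3e-07), where it started lower. FOXA1 was at 18.2, 18.1 and 18.5 CPM in empty-vector cells and at 24.1, 27.1 and 30.0 CPM in USP18 cells, a change of −1.01 (adjusted p = 8.2e-19) and of −1.52 (adjusted p = 6.0e-28). FOXA1 in empty-vector cells lies next to the size threshold, with −0.99 to −1.06 when a library was left out, and was under it in 2 of those 6 fits. HNF4G and FOXA2 did not follow. HNF4G was at 4.91, 4.50 and 4.97 CPM and at 10.9, 11.1 and 10.9 CPM, with a difference of 0.25 in empty-vector cells (95% interval −0.06 to 0.56, adjusted p = 0.15) and 0.35 with USP18 (adjusted p = 0.015, not passed in 1 of 6 such fits). FOXA2 was at 35.0, 40.6 and 41.5 CPM and at 55.0, 55.8 and 57.2 CPM, with −0.08 (95% interval −0.19 to 0.03, adjusted p = 0.19) and 0.12 (adjusted p = 0.042, not passed in 4 of 6 fits that left out a library).

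A1CF was at 13.0, 9.84 and 13.2 CPM in empty-vector cells and at 4.08, 5.54 and 4.56 CPM in USP18 cells with 5 µM CP14, a change of −1.57 (adjusted p = 4.5e-19) and of −1.25 (adjusted p = 5.1e-12). SERPINA1 had 20, 13 and 19 counts and 7, 4 and 4 counts, a change of −1.50 (adjusted p = 3.0e-05) and of −1.65 (standard error 0.43, adjusted p = 8.5e-04). With so few counts the interval for SERPINA1 in USP18 cells runs from −2.52 to −0.78. Against 1 µM CP14 in place of vehicle, a comparison chosen after seeing the data that uses no vehicle library, A1CF, FGA, FGB, FGG, SERPINA1, HNF4A and FOXA1 were called lower in empty-vector cells (13.5% of genes called), and these genes other than HNF4A in USP18 cells (17.8% called). The differences for FGB were −3.46 and −4.52, and for HNF4A −1.81 and −0.52 (adjusted p = 8.1e-11).

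**Figure D3:**
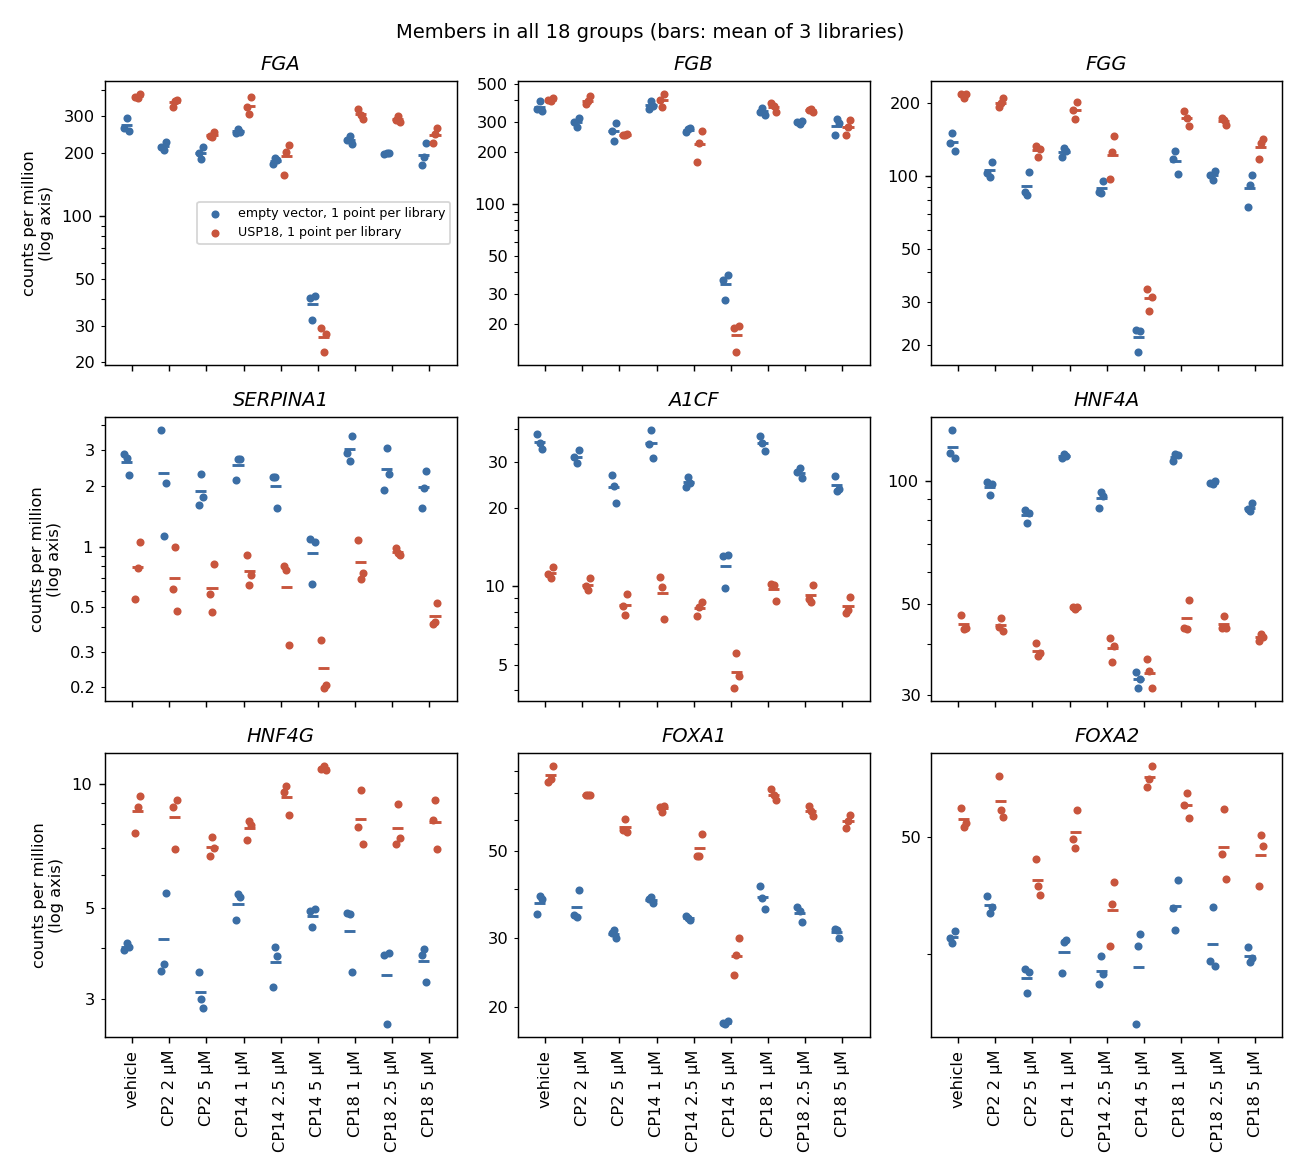
CPM (log axis) of each member in all 18 groups, with 1 point per library and a bar for the mean of 3. FGA, FGB and FGG drop with 5 µM CP14 in both populations, to means of 38.1, 34.1 and 21.5 CPM with empty vector, and HNF4A of the 2 populations meets at 32.8 and 34.1 CPM.

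Whether the response differed between the populations was tested as an interaction, called on the adjusted p alone. Of 72 values 11 were called, where 5.19% were over all genes, and 5 of them were at 5 µM CP14, where 26.4% of genes were called. There HNF4A fell less in USP18 cells, with an interaction of 1.49 (standard error 0.083, adjusted p = 3.5e-19), and FGA and FGB fell more, at −0.99 (adjusted p = 1.6e-07) and −1.12 (adjusted p = 5.9e-07). FOXA1 also fell more, at −0.51 (adjusted p = 1.1e-05), and FOXA2 was at 0.20 (adjusted p = 0.042, not passed in 8 of 12 fits that left out a library). For FGG the interaction was −0.11 (95% interval −0.43 to 0.22), for A1CF 0.32 (−0.01 to 0.66), for HNF4G 0.09 (−0.31 to 0.49) and for SERPINA1 −0.15 (−1.15 to 0.85), none of which passed the test. USP18 itself was at a mean of 2047 CPM in USP18 cells with 5 µM CP14, against 1307 CPM with vehicle and 1038 CPM with 1 µM CP14. The part of this in the interactions was not tested. The other 6 interactions called were at 5 µM CP2, 1 and 2.5 µM CP14 and 5 µM CP18, where 0.843%, 1.87%, 7.31% and 0.719% of genes were called (HNF4A at 0.34 and 0.38 with 5 µM CP2 and CP18, FOXA1 at −0.31 and −0.49 with 1 and 2.5 µM CP14, and FGA at −0.39 and FGB at −0.44 with 2.5 µM CP14). Of 12 fits that each left out a library, FOXA1 at 1 µM CP14 did not pass in 7, FGB at 2.5 µM CP14 in 6, and FGA at 2.5 µM CP14 and HNF4A at 5 µM CP2 in 5 each. In a fit of 12 libraries, HNF4A at 5 µM CP2 and at 5 µM CP18 did not pass, nor did FOXA2 at 5 µM CP14. The count of 11 was 7 without replicate 1 of empty-vector vehicle and 6 without replicate 3 of USP18 vehicle. The interaction with vehicle contains the vehicle difference that was in view when members were chosen, so these 11 values are not independent of that choice. For 5 µM CP14 alone it was also taken against 1 µM CP14, without any vehicle library. HNF4A was then at 1.29 (adjusted p = 5.6e-17), FGA at −0.93 (adjusted p = 5.6e-07) and FGB at −1.07 (adjusted p = 1.4e-06), A1CF at 0.54 (adjusted p = 0.011), HNF4G at 0.59 (adjusted p = 0.019) and FOXA2 at 0.19 (adjusted p = 0.043), where 29.6% of genes were called, and FOXA1 at −0.20 did not pass (adjusted p = 0.081).

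The lower doses and the other compounds gave smaller changes, none past a log2 of 1 with all libraries. The changes furthest from 0 were those of FGA (−0.95) and FGB (−0.87) with 2.5 µM CP14 in USP18 cells, which reached −1.06 and −1.01 when a library was left out. With 5 µM CP2, 6 members were lower in empty-vector cells at an adjusted p under 0.05, beside 11.8% of genes in either direction, and 7 in USP18 cells, beside 18.8%. Of the 7, FOXA2 did not pass in 3 of 6 fits that left out a library, A1CF in 2 and HNF4A in 1. With 5 µM CP18 the counts were 6 (13% of genes) and 5 (15.3%), and with 2.5 µM CP14 they were 5 (13.2%) and 7 (29.7%). With 2.5 µM CP18 they were 4 (3.14%) and 3 (9.83%), and with 2 µM CP2 they were 3 (0.558%) and 0 (0.434%; 1 member at an unadjusted p under 0.05 and 0 by DESeq2). With CP18, FGB at 5 µM and A1CF at 2.5 µM in empty-vector cells did not pass in 2 of 6 such fits each, nor A1CF at 5 µM in USP18 cells in 1. Of the 3 that passed with 2 µM CP2 (FGA, FGG and HNF4A), FGA did not pass in 5 of 6 fits that left out a library and FGG in 4. FGG, as an example, was at −0.61 (adjusted p = 1.2e-05) and −0.76 (adjusted p = 1.6e-08) with 5 µM CP2. HNF4A in empty-vector cells passed the adjusted p with 2 µM CP2 (−0.32), 5 µM CP2 (−0.55), 2.5 µM CP14 (−0.41), 2.5 µM CP18 (−0.29) and 5 µM CP18 (−0.49). In USP18 cells HNF4A was at −0.01, −0.22 (adjusted p = 0.0062), −0.20 (adjusted p = 0.0080), −0.0038 and −0.11 in the same 5 treatments, and did not pass in 1 and 2 of 6 such fits for those with a p. At 1 µM, 0 of 9 members passed with CP14 or CP18 in empty-vector cells by edgeR's quasi-likelihood test (1 and 2 at an unadjusted p under 0.05, and 0 by DESeq2), beside 0.202% and 0% of genes, and 1 (FOXA1) and 3 (FGA, FGG and FOXA1) passed in USP18 cells, beside 10.6% and 11.8%. With 1 µM CP18, FGA did not pass in 2 of 6 fits that left out a library, FGG in 3 and FOXA1 in 4.

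The 3 compounds were compared at matched doses, as 10 pairs of groups with the same dose, time and vector and no vehicle library. Of 90 values 21 were called, all at 5 µM and all with CP14 lower than CP2 or CP18, beside 6.06% over all genes, and 39 passed at any size, beside 27.8%. These counts and shares use p-values adjusted over all genes within each pair, whereas the p-values printed below for the pairs are adjusted over all genes and the 10 pairs together. The CP14 minus CP18 difference of FGB was −3.06 with empty vector (adjusted p = 1.9e-28) and −4.01 with USP18 (adjusted p = 1.2e-31), and CP14 minus CP2 gave −2.96 (adjusted p = 8.2e-28) and −3.86 (adjusted p = 5.3e-31). For HNF4A, CP14 minus CP18 was −1.39 with empty vector (adjusted p = 7.5e-26) and −0.29 with USP18 (adjusted p = 1.4e-04). HNF4G lay on the other side, as did FOXA2 in USP18 cells. HNF4G was higher with CP14 than with CP2 by 0.61 with empty vector (adjusted p = 0.0022) and by 0.64 with USP18 (adjusted p = 7.0e-05). Against CP18 it was higher by 0.43 with USP18 (adjusted p = 0.0070), and the 0.37 with empty vector did not pass over the 10 pairs (adjusted p = 0.077). In USP18 cells FOXA2 was higher with CP14 by 0.28 against CP2 (adjusted p = 1.1e-05) and by 0.22 against CP18 (adjusted p = 6.4e-04). In empty-vector cells the FOXA2 difference was 0.03 against CP2 (95% interval −0.08 to 0.14) and −0.03 against CP18 (−0.14 to 0.08).

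At 2.5 µM, CP14 and CP18 differed for 6 members in USP18 cells and for 0 in empty-vector cells by edgeR's quasi-likelihood test, where 1 passed an unadjusted p under 0.05 and 0 by DESeq2, and HNF4A was nearest at −0.13 (adjusted p = 0.063). The CP14 minus CP18 difference in USP18 cells was −0.59 for FGA (adjusted p = 3.7e-08), −0.66 for FGB (adjusted p = 4.8e-08), −0.46 for FGG (adjusted p = 7.8e-05) and −0.32 for FOXA1 (adjusted p = 5.2e-06). It was −0.19 for HNF4A (adjusted p = 0.0087) and −0.17 for FOXA2 (adjusted p = 0.0085), and each did not pass in 2 of 6 fits that left out a library. Over all genes 26.6% passed the adjusted p within that pair in USP18 cells and 2.31% in empty-vector cells. Between CP18 and CP2 at 5 µM, 0 members passed edgeR's quasi-likelihood test in either population, also at an unadjusted p and by DESeq2, where 0.0653% of all genes passed with empty vector and 0.0832% with USP18. The difference of CP18 minus CP2 for FGA was −0.027 with empty vector (95% interval −0.19 to 0.14) and 0.0040 with USP18 (−0.16 to 0.17), for HNF4A 0.06 (−0.04 to 0.17) and 0.11 (−0.01 to 0.23), and for SERPINA1 0.07 (−0.51 to 0.64) and −0.45 (−1.26 to 0.36). At 1 µM, 0 members passed between CP14 and CP18 (1 in each population at an unadjusted p under 0.05, and 0 by DESeq2), beside 0.0178% and 0.0772% of all genes, with FGB at 0.12 (−0.07 to 0.30) and 0.13 (−0.05 to 0.31). CP2 at 2 µM has no partner at the same dose.

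**Figure D4:**
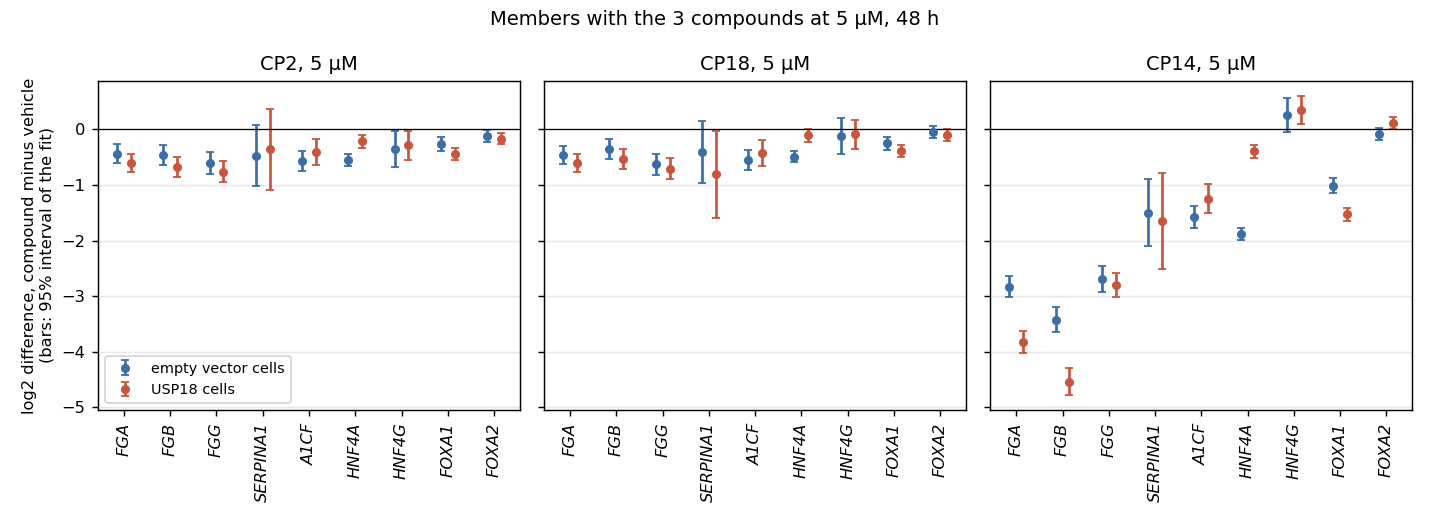
Change of each member (log2, compound minus vehicle) with 5 µM CP2, CP18 and CP14 in empty-vector (blue) and USP18 cells (red), with the 95% interval of the fit. The first 2 panels lie between −0.81 and −0.05, and with CP14 FGB reaches −3.42 and −4.54 while HNF4G is at 0.25 and 0.35 and FOXA2 at −0.08 and 0.12.

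Over the 18 groups, the order of mean levels showed which treatments separated. A1CF had its 8 highest means in the empty-vector groups other than 5 µM CP14 (35.7 CPM with vehicle down to 23.9 with 5 µM CP2), and empty-vector cells with 5 µM CP14 (12.0) overlapped USP18 cells with vehicle (11.2). HNF4A had the same 8 groups on top (121 to 82.2 CPM), then 8 USP18 groups (49.0 to 38.5) and the 2 groups with 5 µM CP14 (34.1 and 32.8), which overlapped. For FOXA1, all 8 USP18 groups other than 5 µM CP14 were above every empty-vector group (77.8 to 50.8 against 38.1 CPM or less). HNF4G had all 9 USP18 groups above all 9 empty-vector groups (7.05 CPM or more against 5.12 or less). Neighbouring groups in these orders mostly overlapped in their libraries. FGA, FGB and FGG had their 2 lowest means with 5 µM CP14, in the order empty vector above USP18 for FGA (38.1 and 26.4 CPM) and FGB (34.1 and 17.4), and USP18 above empty vector for FGG (31.1 and 21.5), each without overlap.

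As a description, correlations of group mean log2 CPM over the 18 groups, which share libraries, vectors and scaling, were 0.98 for FGA with FGB, 0.96 for FGA with FGG and 0.91 for FGB with FGG. A1CF was at 0.98 with SERPINA1 and 0.96 with HNF4A, and HNF4G was at −0.80 with HNF4A. These values hold the vector difference in view when the members were chosen, and differed within the 9 groups of a vector. HNF4G with HNF4A was at −0.175 within empty-vector groups and −0.585 within USP18 groups. A1CF with FGA was at 0.273 over the 18 groups, and at 0.949 and 0.978 within them. Of the genes tested, those with the patterns most like HNF4A included ARHGEF40 (Pearson's r = 0.991) and PLXNC1 (0.983). For A1CF they were SLC7A7, ADAMTS9 and PLXNB1 (0.994 each). For FGB they were NTS (0.998), which encodes neurotensin, MTUS1 (0.994) and MAGED1 (0.992). For FGA they were MAGED1 (0.993), PDGFRL (0.990) and DHCR7 (0.989), for FGG CNTN1, ITM2B (0.992 each) and PDE3A (0.989), and for SERPINA1 TRIM31 (0.988), FSTL5 (0.984) and NTRK3 (0.983). For HNF4G they were NOS1 (0.981), P2RX4 and MSI1 (0.979 each), and for FOXA2 TBX2 (0.975), RTN2 (0.951) and DSC2 (0.947). For FOXA1 they included LGR4 (0.990) and PDK4 (0.989).

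Other genes of the hepatocyte programme were taken from lists that were also made with earlier results in view. Of the 58 listed hepatocyte genes, mostly of plasma proteins and other than members, 16 had at most 3 counts in every library and 32 passed the filter on low counts. In the mean difference over treated conditions, 18 of these 32 were called lower with USP18 and 1, APOE, higher (1.14), with a median of −1.12, beside 5.32% lower, 4.79% higher and a median of −0.01 over all genes tested. Under 5 µM CP14, 19 of 32 were called lower with empty vector and 17 with USP18, and 0 higher in either (1 and 2 at an adjusted p under 0.05 of any size, by edgeR's quasi-likelihood test). Over all genes tested, 7.81% and 9.01% were called lower. Most genes called on this list over the treated conditions were thus lower with USP18. At an adjusted p under 0.05 of any size, 27 of the 32 were lower and 3 higher. FGA and FGG were higher at that adjusted p but below the limit on size. The largest of the 18 differences were in genes of few counts, namely F13B (a subunit of coagulation factor XIII; 0.991 against 0.183 CPM over the treated libraries), SERPINA10 (an inhibitor of factor Xa; 0.456 against 0.078) and F10 (coagulation factor X; 0.517 against 0.0998), with 0 to 15, 0 to 5 and 0 to 5 counts in the treated USP18 libraries. More abundant members of the list include C3, the central complement component, which was at 170 ± 2.87 CPM and 35.3 ± 0.469 CPM with vehicle (SD, n = 3) and differed by −2.36 over the treated conditions (adjusted p = 1.6e-58). VTN (vitronectin) differed by −1.97 (adjusted p = 4.4e-41) and TM4SF4, a liver and gut membrane protein, by −1.30 (adjusted p = 1.1e-39). APOE, VTN and TM4SF4 were chosen after their values were seen.

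**Figure D5:**
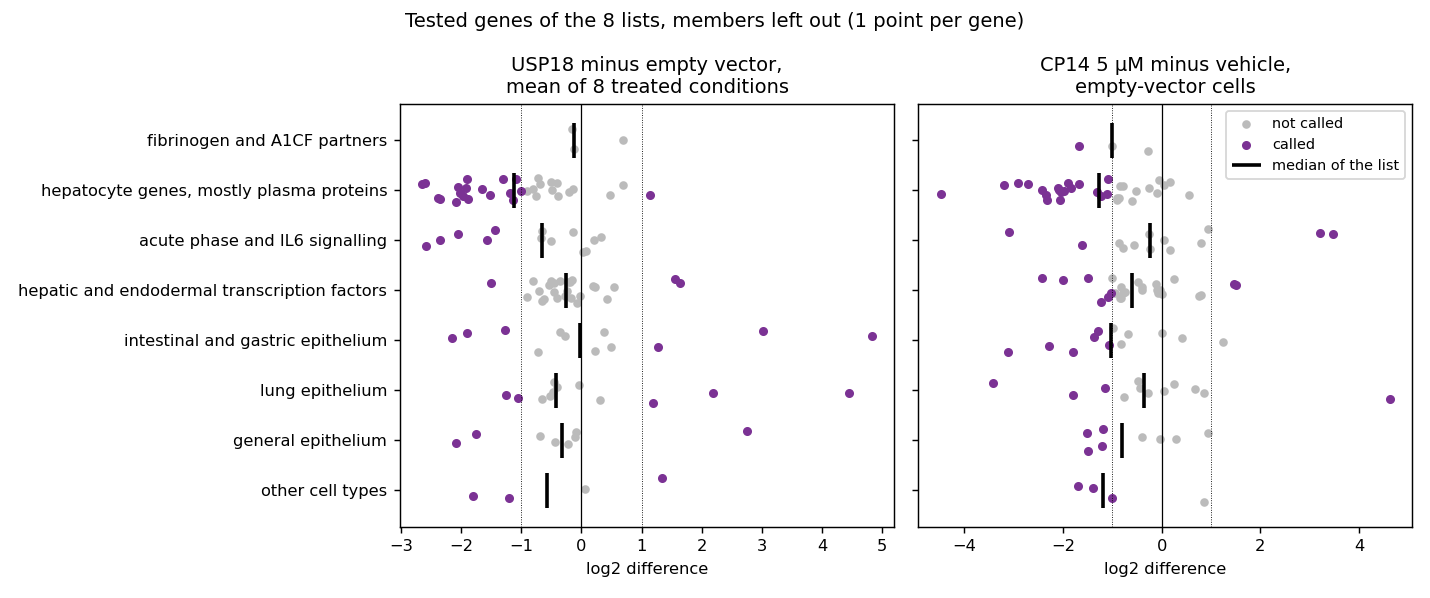
Log2 differences of the tested genes of 8 lists, members left out, for the mean vector difference over treated conditions (left) and the empty-vector response to 5 µM CP14 (right), with called genes in purple, a black bar for each median and dotted lines at −1 and 1. The hepatocyte genes, mostly of plasma proteins, have 18 and 19 of 32 called lower.

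Of 13 tested acute phase and IL-6 genes, 5 were called lower with USP18 and 0 higher over the treated conditions by edgeR's quasi-likelihood test (3 higher at an adjusted p under 0.05 of any size), beside 5.32% and 4.79% of all genes. The 3 largest were LBP, the lipopolysaccharide-binding protein (0 to 19 counts in treated USP18 libraries against 1 to 62), C3 and CFB, complement factor B (−2.05, adjusted p = 1.9e-22), of which C3 and CFB are also on the hepatocyte list. With 5 µM CP14, LCN2 (lipocalin 2; 3.48) and IL6 (0 to 16 counts in any library) were called higher and CEBPD (−1.61) and LBP (−3.08) lower in empty-vector cells. In USP18 cells LCN2, IL6, SOCS3 (1.16) and CEBPB (1.88) were called higher and CEBPD (−1.23) and LBP lower. Over all genes, 6.07% were called higher and 7.81% lower with empty vector, and 8.74% and 9.01% with USP18. The genes called with 5 µM CP14 are named after their values were seen. Of 26 tested hepatic and endodermal transcription factors other than members, 2 were called higher and 1 lower over the treated conditions (7.69% and 3.85%, near the shares over all genes). At an adjusted p under 0.05 of any size, 6 of the 26 were higher and 19 lower, with a median of −0.25. Over all 16836 genes tested, 6449 were higher and 6638 lower in that way, with a median of −0.01. PDX1 and CDX2, factors of pancreas and intestine, were higher by 1.63 (adjusted p = 1.3e-09; at most 16 counts) and 1.55 (adjusted p = 6.3e-18), and ONECUT1, a liver factor, was lower by 1.51 (adjusted p = 1.9e-10; at most 27 counts). Under 5 µM CP14 this list had 2 higher and 6 lower in empty-vector cells, the bile acid receptor gene NR1H4 (−1.50) among those lower. In USP18 cells CEBPB, GATA6 (1.77) and KLF4 (1.95) were called higher and NR1H4 (−1.47) and NR2F1 (−1.28) lower. Of 3 tested partners of fibrinogen and A1CF, 0 were called in the vector comparison by edgeR's quasi-likelihood test (3 at an adjusted p under 0.05 of any size). FGL1, which encodes a fibrinogen-like liver protein, was called lower with 5 µM CP14, at −1.67 with empty vector (adjusted p = 5.5e-18) and −2.80 with USP18 (adjusted p = 1.1e-27). APOBEC1, the editing enzyme that A1CF serves, had at most 2 counts in any library.

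Genes beside the members were read for comparison, 42 in all, as the nearest 3 tested genes on each side. Of these, 8 were called in the mean vector difference, 8 with 5 µM CP14 in the empty-vector population and 7 in the other, beside 10.1%, 13.9% and 17.7% of all genes. With 5 µM CP14, THBD (460 kb from FOXA2) was called higher in both, at 2.67 (adjusted p = 2.0e-25) and 4.32 (adjusted p = 3.7e-33). DKK1 (1430 kb from A1CF) was called lower in both, at −1.96 (adjusted p = 2.0e-31) and −1.43 (adjusted p = 8.0e-27). PLRG1, 12.6 kb from the fibrinogen genes, differed between vectors by 0.03 (adjusted p = 0.062) and with 5 µM CP14 by 0.22 with empty vector (adjusted p = 1.6e-05) and by −0.10 with USP18 (adjusted p = 0.052). Further away, MND1 (1150 kb) did not pass between vectors (0.03, adjusted p = 0.47) and was called lower with 5 µM CP14 in both populations, at −1.11 (adjusted p = 4.2e-12) and −1.57 (adjusted p = 4.6e-17). NPY2R (596 kb), with at most 28 counts in any library, was also called lower in both, and was called higher with USP18 over the treated conditions (adjusted p = 8.3e-08). GUCY1B1 (1150 kb) was called lower with empty vector, at −1.78 (adjusted p = 2.8e-05), and differed between vectors by 0.40 (adjusted p = 0.0023). Beside SERPINA1, SERPINA6 (the cortisol-binding globulin, 53.4 kb away) differed by −1.52 (adjusted p = 3.5e-18) and SERPINA10 (83.5 kb) was lower (0.456 against 0.078 CPM over the treated libraries), whereas SERPINA3 (222 kb on the other side) was at −0.14 (adjusted p = 0.30). FITM2 and TTPAL, on either side of HNF4A at 44.5 and 43.0 kb, were at −0.22 (adjusted p = 4.05e-13) and −0.32 (adjusted p = 1.75e-17). TTC6 overlaps FOXA1 and ASAH2B overlaps A1CF, and they were at 1.01 (adjusted p = 9.5e-11) and 0.28 (adjusted p = 4.0e-13). No source used here states whether counting took account of strand, so some reads of these overlapping pairs could have been given to either gene.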

How the data were processed

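RNA of 54 libraries was sequenced. Per the labels it was captured by poly(A) with a stranded mRNA kit, whereas the study's methods name ribosomal depletion. The authors deposited estimated counts per gene (RSEM expected counts), made per the submitters' processing notes with cutadapt 1.18, STAR 2.7.0f and RSEM 1.3.1 on hg38. The methods name GENCODE v30 for mapping but another RSEM version and a mouse GENCODE annotation for counting, whereas the identifiers deposited are human, and no source used here states strand-aware counting. Of the values, 94% were whole, and all were rounded. Library totals of 16673228 to 25609062 counts set the precision.

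Genes were filtered with filterByExpr (minimum count 10, minimum total 15), which left 16836, the 9 members among them. A single edgeR 4.0.16 quasi-likelihood fit in R 4.3.3 (TMM, 18 group means, limma 3.58.1 loaded with it) gave all contrasts, with Benjamini-Hochberg adjustment over all genes tested. Calls needed an adjusted p under 0.05 and an absolute log2 over 1, and interactions the adjusted p alone. DESeq2 1.42.0, RLE size factors, other filters, smaller fits, a replicate block and leaving out each library were the alternatives. On simulated data of 16447 genes with 200 changed by a log2 of 2, the fit recovered 100% in the mean vector difference, 98.5% in 5 µM CP14 against vehicle and 97% in its interaction, with 1, 2 and 5 false calls. The changed genes were not of low counts. Smaller changes, and data in which most genes differ as between the vectors, were not simulated.

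The members and gene lists were chosen with earlier results of these data known. The genes named are all members, USP18, the 3 genes most correlated with each member over the 18 groups, the 3 called genes of each list with the largest mean vector difference, defining markers and genomic neighbours, and others are named as chosen later. Some genes that this rule names, and a promoter motif, are not reported here. A fold against a group at 3 counts or fewer is a lower bound from that floor, which like any counting interval covers counting error only. Positions are from GENCODE v44 on GRCh38, in which 58517 of 58870 identifiers were found. Promoter windows matched 7 members.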

Additional observations from a re-analysis of the deposited data

Results flagged for a closer look

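The interaction of compound and vector passed the adjusted p in 11 tests, given as the USP18 change minus the empty-vector change on the log2 scale, by edgeR's quasi-likelihood test over all genes. With 5 µM CP14 the values were 1.49 for HNF4A (adjusted p = 3.5e-19), −0.99 for FGA (adjusted p = 1.6e-07) and −1.12 for FGB (adjusted p = 5.9e-07). FOXA1 was at −0.51 (adjusted p = 1.1e-05) and FOXA2 at 0.20 (adjusted p = 0.042). With 2.5 µM CP14, FGA was at −0.39 (adjusted p = 0.024), FGB at −0.44 (adjusted p = 0.026) and FOXA1 at −0.49 (adjusted p = 3.2e-05). FOXA1 was at −0.31 with 1 µM CP14 (adjusted p = 0.030). HNF4A was at 0.34 with 5 µM CP2 (adjusted p = 0.015) and at 0.38 with 5 µM CP18 (adjusted p = 0.0047). Neither of these 2 HNF4A values passed in a fit of 12 libraries, nor did FOXA2 at 5 µM CP14. All of these tests contain the vehicle libraries on which the members were chosen, so they are not independent of that choice. Against 1 µM CP14, with no vehicle library, FOXA1 at 5 µM CP14 did not pass (−0.20, adjusted p = 0.081), and no such test was run for the other treatments.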

How the results depend on the processing

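Without the limit on size, the members called were 8 in place of 4 in the mean vector difference, 66 in place of 28 within conditions, 31 in place of 7 and 35 in place of 6 against vehicle with empty vector and USP18, and 39 in place of 21 between compounds. When a library was left out, the counts ran from 4 to 4, 28 to 30, 6 to 7, 6 to 8 and 17 to 21, and for interactions from 6 to 12. Against 1 µM CP14 in place of vehicle, chosen after seeing the data, HNF4G in empty-vector cells turned to −0.10 (adjusted p = 0.58). The SERPINA1 interaction at 5 µM CP14 ran from −0.45 to 0.10 when a library was left out, the last without replicate 3 of USP18 vehicle (adjusted p = 0.95). The cause was not tested. In a fit of 12 libraries the HNF4A interactions at 5 µM CP2 and CP18 no longer passed (adjusted p = 0.073 and 0.071), nor did FOXA2 at 5 µM CP14 (adjusted p = 0.071) or its change from vehicle in USP18 cells (adjusted p = 0.079). By DESeq2, 4 results no longer passed, namely the FGB interaction at 2.5 µM CP14 (adjusted p = 0.053), the FGB vector difference at 2.5 µM CP18 (adjusted p = 0.074), FOXA2 with 5 µM CP14 in USP18 cells (adjusted p = 0.051) and HNF4G between 5 µM CP14 and CP18 with empty vector (adjusted p = 0.052). With no filter the FGB mean vector difference of −0.06 passed (adjusted p = 0.0010), and both of those FOXA2 values and that HNF4G value did not (adjusted p = 0.077 to 0.12). With at least 10 counts in every library, A1CF between 5 µM CP14 and CP2 with empty vector fell just short of the limit on size.

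The replicate number as a block left 209 of 209 results with their direction and side of the threshold, and the calls at 4, 28, 7, 6, 11 and 21. Over all genes tested, same-numbered libraries did not deviate together, with 0 of 25 comparisons having all correlations over 0.1. The correlations ran from −0.117 to 0.0609. They cannot tell whether same-numbered libraries shared a batch that acted on a part of the genes. SERPINA1, with as few as 4 counts in a library, is the member whose values depth limits most.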

Other observations

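Genes of other epithelia were also read over the treated conditions, as USP18 minus empty vector. Of 12 tested intestinal and gastric genes, 3 were called higher and 3 lower, beside 4.79% and 5.32% of all genes. TFF1, a trefoil peptide of stomach, was higher by 3.02 (adjusted p = 1.3e-35), and TFF3 was at least 2.1-fold higher, with 0 to 3 counts in treated empty-vector libraries and 1 to 15 in treated USP18 libraries. VIL1, which encodes the brush border protein villin, was lower, at −2.15 (adjusted p = 4.5e-38). Under 5 µM CP14, 6 of the 12 were called lower with empty vector and 9 with USP18, beside 7.81% and 9.01% of all genes.

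Of 12 tested lung epithelium genes, 3 were called higher and 2 lower, with the same shares of all genes (4.79% and 5.32%) beside this and the next lists. At an adjusted p under 0.05 of any size, 4 of the 12 were higher and 7 lower, beside 77.7% of all genes in either direction. The median of the 12 was −0.43. FOXJ1, the factor of ciliated cells, was at 4.44 (adjusted p = 1.4e-37). It had 0 to 18 counts in treated empty-vector libraries and 100 to 218 in treated USP18 libraries. LAMP3 was at 2.18 (adjusted p = 1.7e-23), and LPCAT1, an enzyme of surfactant lipid synthesis, at −1.25 (adjusted p = 8.3e-52). Of 8 general epithelium genes, KRT19 was higher at 2.75 (adjusted p = 4.3e-52), and EPCAM and E-cadherin (CDH1) were lower at −2.08 and −1.76 (adjusted p = 2.1e-35 and 3.4e-48). Of 4 tested genes of other cell types, COL3A1 was higher at 1.34 (adjusted p = 2.0e-13), and LUM and COL1A1 were lower at −1.80 and −1.21 (adjusted p = 3.0e-17 and 2.0e-29). COL3A1 had 3 to 28 counts in treated empty-vector libraries and 5 to 75 in treated USP18 libraries. LUM had 6 to 47 and 1 to 19. All of these tests are edgeR's quasi-likelihood test.

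LINC00261, a long non-coding RNA gene 2.36 kb from FOXA2, differed between replicates of a group. It had 1, 0 and 0 counts in the empty-vector vehicle libraries and 121, 3 and 62 counts in the USP18 vehicle libraries, 0 to 68 counts in treated empty-vector libraries and 0 to 125 in treated USP18 libraries. It was chosen after its values were seen.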
